A study of Mus musculus with 2 samples.

Results

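The 9 genes described here, Gapdh, Hprt, B2m, Tbp, Ppia, Ywhaz, Sdha, Tfrc and Gusb, are commonly used as normalisers in quantitative PCR. They were taken by name from the non-control spots of both arrays, with every probe that carries one of these names, which gave 22 probes on 59 spots per array, out of 55681 probes and 34797 gene names in all. The study measured total RNA of cultured cells labelled GT1-7, immortalised neurons of the mouse hypothalamus that are known to make and release gonadotropin-releasing hormone (GnRH), on 2 Agilent arrays of the 1-colour kind (Cy3 label). The vehicle group (1 array) was labelled DMSO, 30 min, and the GnRH group (1 array) 50 nM GnRH, 30 min. A description field shared by the samples speaks of 100 nM bradykinin and A549 cells; the groups follow the treatment labels. Marker genes could check the cell label only weakly, as 21105 of all 34797 gene names were measured as well above background. Of 5 GnRH neuron markers 4 were well above background on both arrays (Gal, Dlx5, Otx2 and Kiss1r), but the GnRH gene Gnrh1 was not. Markers of other cells were also found, 5 of 6 for gonadotropes (among them Cga and Gnrhr), 2 of 3 each for astrocytes and microglia, 1 of 2 for fibroblasts and 0 of 4 for epithelial cells.

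Each group had 1 array, so no difference could be checked against replicates and no test was made; the precision is limited by that number. Of non-control spots, 55.2% (vehicle) and 56.9% (GnRH) were well above background, and none was saturated. Signals were scaled to each array's 75th percentile, 578 (vehicle) and 541 (GnRH), and differences are log2, GnRH minus vehicle. The error given with a difference is that of the scanner software. It was 0.20 for a probe printed once and follows mostly from a multiplicative setting of 0.1, so it is not a spread between cultures. It shrinks with the number of spots, to 0.14 for the B2m probe (2 spots) and 0.06 to 0.07 for member probes with 10.

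A reference gene is useful only where its transcript level stays the same across the compared conditions, since the target's level is divided by it. The 9 genes serve unrelated functions, which is why sets like this one are drawn from separate pathways. GnRH acts through a G-protein-coupled receptor that raises intracellular calcium and activates MAP kinases, and within minutes induces immediate-early genes such as Egr1 and Fos, which serve here as the induced targets.

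The probes were designed oligonucleotides of 60 bases, placed by the files on build mm9. Several of them do not read a single genomic stretch, and 3 are shown because the files' coordinates cover more genome than the probe is long, as for a probe across a splice junction. The Tbp probe starting at base 847 of its transcript covers 668 bases of genome (chr17:15650578-15651245, + strand), the Tfrc probe at 1732 covers 217 (chr16:32624877-32625093, + strand) and the Ywhaz probe at 1174 covers 141 (chr15:36705040-36705180, - strand). None of their letters is capitalised.
Tbp at 847: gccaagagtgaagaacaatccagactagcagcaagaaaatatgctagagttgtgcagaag
Tfrc at 1732: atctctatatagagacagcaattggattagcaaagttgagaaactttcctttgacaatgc
Ywhaz at 1174: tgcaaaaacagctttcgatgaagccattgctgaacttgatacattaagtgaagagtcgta

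Gapdh, the glycolytic enzyme gene, had 8 probes, and mammalian genomes hold many processed copies of it. The files place 6 of the 8 on chromosome 6. Among these, the probe at 897 is placed on only 19 bases (chr6:125111848-125111866, - strand). That stretch lies past the placement of the probe at 1175, out of transcript order, so it is uncertain. The probe at 740 lies on chromosome 8 (chr8:94212520-94212579, - strand), and a probe designed from another transcript record, at base 554 of that record, on chromosome 7 (chr7:59003199-59003257, + strand). Transcripts of Gapdh and of near-identical copies may bind the same probes, so the values are uncertain in that respect. The stretch of 30 bases that the 3 probes at the 3′ end share is shown for this reason, with capitals at the 3 positions where they differ.
Gapdh at 554 of the other record: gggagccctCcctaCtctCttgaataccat
Gapdh at 1164: gggagccctCcctaTtctTttgaataccat
Gapdh at 1175: gggagccctAcctaCtctCttgaataccat
Counted from the first base shown, the probe at 1164 differed from the first by C15T and C19T, and the probe at 1175 differed from the first by C10A. These probes gave log2 differences of 0.00, -0.08 and 0.03 in the order shown. The 3 versions of the stretch thus gave values within 1 scanner error of each other, a wide margin at 0.20 per probe.

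All 22 probes were well above background on both arrays. Their log2 differences ran from -0.19 to 0.17, with 12 above 0 and 10 below. No probe was 25% apart (the higher signal over the lower), 19 lay within 1.1-fold, and 21 of 22 were smaller than their own scanner error. No share over all probes was taken for these probe counts. The scanner error of a probe printed once, 0.20, exceeds the median differences of similarly bright genes given below. These probe counts therefore do not set the 22 probes apart. Taking the brightest probe of each gene, 0 of the 9 genes were at least 2-fold apart, against 0.441% of all 21105 measured gene names, and 0 were at least 1.5-fold apart, against 2.06%. At 25% apart the count was again 0, against 8.36%. With so few genes, a count of 0 is near what these shares give, so it does not set the 9 genes apart. At 1.1-fold, a threshold added later, 2 of 9 passed, B2m and Tbp, a share of 22.2% against 27.6% of all genes. The median size of the difference was 0.02 for the 9 genes and 0.07 for all measured genes, many of which are dimmer. Among genes with a vehicle signal within 2-fold of each member, it was between 0.04 (Sdha) and 0.06 (Tbp).

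**Figure D1:**
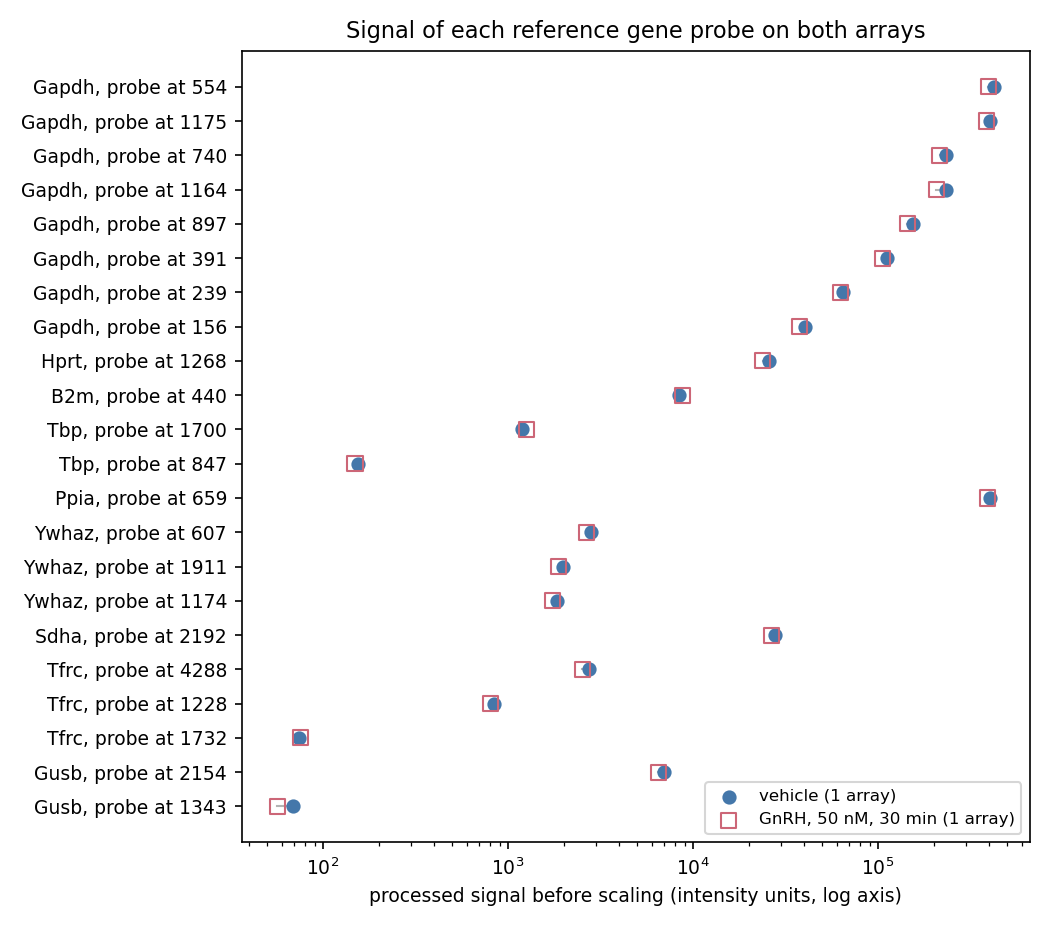
Processed signal before scaling (intensity units, log axis) of the 22 probes of the 9 reference genes, with filled circles for the vehicle array and open squares for the GnRH array; each row is a gene and the start of its probe in the transcript. The symbols of a row nearly coincide for every probe, from 69.1 and 56.8 for the dimmest Gusb probe to 423146 and 395367 for a Gapdh probe; levels are to be compared within a row only.

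The enzyme genes among the 9, Gapdh, Sdha, Hprt, Gusb and Ppia, had differences between -0.02 and 0.04. On its brightest probe Gapdh read 423146 with vehicle and 395367 with GnRH, as processed signal, which after scaling was a log2 difference of 0.00 ± 0.20. The brightest probe placed on chromosome 6 (chr6:125111869-125111928, - strand) read 404910 and 386698, a difference of 0.03. Over all 8 Gapdh probes the differences ran from -0.08 to 0.06, with a mean of 0.00 and an SD of 0.04 over probes, and 5 of the 8 were below 0. The probe at the 5′ end, starting at base 156, read 40529 and 37770 (-0.01), and the one at 239 read 64322 and 62840 (0.06). The probes at 391, 897 and 740 gave 0.01, -0.02 and -0.01. Gapdh probes from the start to the end of the transcript thus differed from one another by less than the scanner error. That is a weak check, as genes of similar signal had a median difference of 0.04, far below the error of 0.20.

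Sdha encodes the flavoprotein subunit of succinate dehydrogenase, the enzyme shared by the citric acid cycle and the respiratory chain. Its single probe (chr13:74460310-74460369, - strand) read 27776 with vehicle and 26450 with GnRH, a difference of 0.02 ± 0.20. Hprt encodes the purine salvage enzyme hypoxanthine phosphoribosyltransferase. Its probe (chrX:50374757-50374816, + strand) was printed 10 times, and its spots ran from 24206 through a median of 25599 to 27295 on the vehicle array. On the GnRH array they ran from 22728 through 23729 to 24765, or from 24271 to 26448 once put on the vehicle array's scale. The scaled ranges overlap almost wholly, and the difference was -0.02 ± 0.06. Taken spot by spot at the same array position, the Hprt differences ran from -0.05 to 0.06 with an SD of 0.03, and 3 of 10 were above 0. At the Hprt spot with the largest local difference, neighbouring spots differed by a median of 0.35 in size. No Hprt spot lay in an area of at least 4 such spots.

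Gusb encodes lysosomal beta-glucuronidase. Its probe at base 2154 (chr5:130465133-130465192, - strand), also printed 10 times, ran from 6608 through 6968 to 7283 with vehicle and from 6239 through 6496 to 6761 with GnRH. After scaling, the GnRH spots covered 6663 to 7221, inside the vehicle range, and the difference was -0.02 ± 0.06, with 3 of 10 spots above 0. One of these spots lay in an area of the array where neighbouring spots of unrelated genes differed together. A second Gusb probe, designed from another transcript (chr5:130475555-130475614, - strand), was dim at 69.1 and 56.8, and its -0.19 ± 0.23 was the lowest value of the 22 probes. Averaging both probes would put Gusb at -0.10 in place of -0.02.

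Ppia encodes cyclophilin A, an abundant prolyl isomerase. Its single probe (chr11:6319737-6319796, + strand) read 405298 and 389505, a difference of 0.04 ± 0.20. In the authors' deposited value table both arrays hold the same Ppia value of 397402. Quantile normalization, which gives probes of the same rank the same value, also put Ppia at a difference of 0. The equal values therefore show an equal rank on both arrays, not an equal measured signal. Ywhaz encodes the zeta form of 14-3-3, an adaptor that binds phosphorylated proteins. Its 3 probes read 2811 and 2656 (at 607), 1978 and 1867 (at 1911), and 1850 and 1731 (at 1174), with vehicle and GnRH. Their differences were 0.01, 0.01 and 0.00, the closest set of values among the genes with several probes.

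Tfrc encodes the transferrin receptor, which takes up iron and whose messenger RNA is stabilised when iron is low. Its probe at 4288 (chr16:32632255-32632314, + strand), printed 10 times, ran from 2524 through 2768 to 2826 with vehicle and from 2370 through 2505 to 2636 with GnRH. Scaled, the GnRH spots covered 2530 to 2815, so the ranges overlap, while 9 of 10 spots differed downwards and the mean was -0.03 ± 0.06. The other Tfrc probes went the other way, at 0.04 ± 0.20 (839 and 809) and 0.13 ± 0.22 (73.9 and 75.9). All 3 Tfrc differences lay within their scanner errors.

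The highest of the 9 values belonged to Tbp and B2m. Tbp encodes the TATA-binding protein of the general transcription machinery. Its brightest probe, at base 1700 (chr17:15654250-15654309, + strand), read 1192 with vehicle and 1256 with GnRH, 12.5% more after scaling (log2 difference 0.17 ± 0.20). The probe at 847, printed 10 times, gave 0.04 ± 0.07. Its 9 spots that carried no outlier mark ran from 132 through 154 to 168 with vehicle and from 129 through 152 to 164 with GnRH. Put on the vehicle array's scale, the GnRH spots ran from 138 through 162 to 176. The scaled ranges overlap, the spot differences had an SD of 0.13, and 6 of 9 were above 0. The values of the Tbp probes differed by less than their combined scanner error, and the larger one rests on 1 spot per array. With the outlier spot kept the probe at 847 gave 0.09, and the authors' deposited table gives it a difference of 0.10.

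B2m encodes beta-2-microglobulin, the light chain of MHC class I molecules. Its probe (chr2:121978401-121978460, + strand) was printed 2 times and read 8289 and 8412 with vehicle, against 8678 and 8785 with GnRH. On the vehicle array's scale the GnRH spots stood at 9268 and 9382, so the spots of the arrays do not overlap. The difference was 0.16 on each spot and 0.16 ± 0.14 for the probe, 11.7% more. With 75th-percentile scaling it was the only one of the 22 probe values larger than its scanner error. That error depends on the number of spots, 2 for B2m against 1 for the Tbp probe at 1700 (0.17 ± 0.20). The comparison therefore does not set B2m apart from Tbp. B2m was within that error with median scaling (0.13), with no scaling (0.06) and with spike-in scaling (0.02). Among all measured genes 76.7% had a smaller difference in size than B2m, and among 3194 genes with a vehicle signal within 2-fold of that of B2m 94.1% did; for Tbp these shares were 78.4% and, among 4119 genes, 90.9%. Taking the brightest probe of each gene, B2m and Tbp were the only ones of the 9 whose processed signal was higher on the GnRH array before any scaling.

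**Figure D2:**
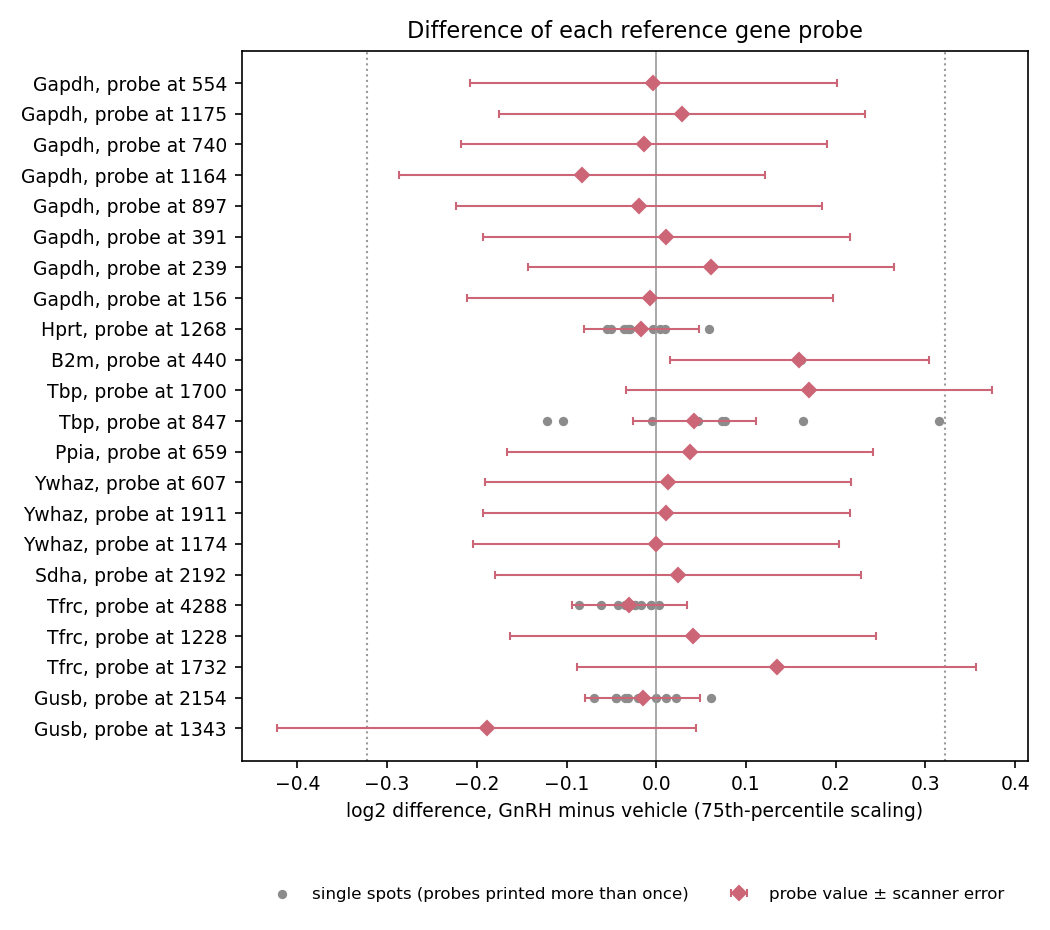
Log2 difference (GnRH minus vehicle) of the 22 probes after scaling to the 75th percentile; diamonds with bars are probe values ± scanner error, grey dots are single spots of probes printed more than once, and dotted lines mark a gap of 25%. All diamonds lie between the dotted lines, and the bar of B2m at 0.16 ± 0.14 is the only one that does not reach 0 under this scaling. Bars shorten with the number of spots, 2 for B2m against 1 for the highest Tbp value (0.17 ± 0.20). B2m stood at 0.13 with median scaling and 0.06 with none, where a bar of that length reaches 0.

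How far the choice of normaliser matters can be read from the members' differences from one another, which a constant shift of an array leaves as they are. Their whole range was 0.20 with 75th-percentile scaling and with quantile normalization, and 0.21 with the lowess trend removed. It was 0.17 with normexp or with no background correction. With the mean over probes in place of the brightest it was 0.26, or 1.20-fold, from Gusb (-0.10) to B2m (0.16). Among the 36 pairs of the 9 genes, on their brightest probes, the median gap was 0.05 on the log2 scale. The largest, between Tbp and Tfrc, was 0.20, or 1.15-fold. In 3 pairs, those of B2m with Tfrc, Hprt and Gusb, the gap was larger than the combined scanner error. The probes of Tfrc, Hprt and Gusb had 10 spots each and so the smallest errors. Without B2m and Tbp, left out after their values were seen, the largest gap among the other 21 pairs was 0.07. The mean gap to the other members was largest for Tbp (0.15) and B2m (0.14), followed by Tfrc (0.08), and was 0.06 for each of the other 6. Hprt and Gusb, each measured on 10 spots, had a gap of 0.00.

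The folds of the induced targets differed little between reference genes. Egr1, a zinc-finger transcription factor gene, read 73.5 with vehicle and 24361 with GnRH, and was 354-fold higher after scaling to the 75th percentile. Relative to Gapdh it was 355-fold higher, relative to Hprt 358-fold and relative to Tfrc 362-fold. Relative to B2m it was 317-fold and relative to Tbp 315-fold. Fos, an AP-1 subunit gene, read 114 and 6725. It was 63.4-fold higher relative to Gapdh, 64.6-fold relative to Tfrc and 56.2-fold relative to Tbp. Relative to the geometric mean of the 9 genes, Egr1 was 345-fold and Fos 61.6-fold higher. On the brightest probe of each gene, the log2 values of Egr1 ran from 8.30 ± 0.30 with Tbp to 8.50 ± 0.23 with Tfrc. These errors include that of Egr1 itself, which is shared and drops out between references. The gap of Tbp to Tfrc, 0.20, lay within their combined scanner error of 0.21. The gaps of B2m to Tfrc (0.19), Hprt (0.18) and Gusb (0.17) were each larger than their combined error of 0.16. These errors follow the number of spots, 2 for B2m against 1 for Tbp, so they do not set B2m apart from Tbp. The background step mattered more, as with no background correction the log2 values relative to Gapdh fell to 7.42 for Egr1 and 5.24 for Fos.

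**Figure D3:**
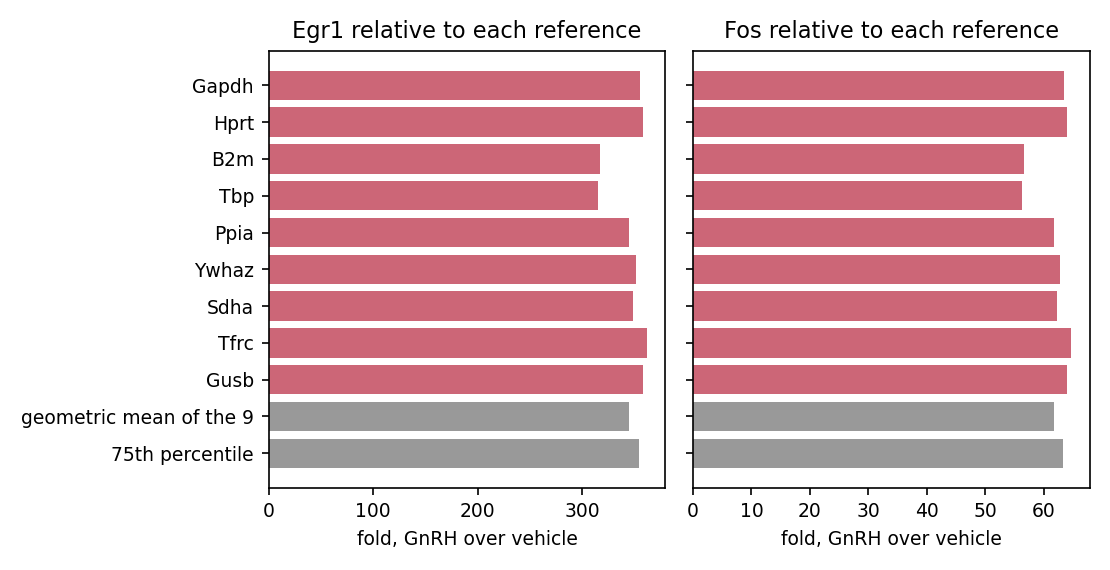
Fold of Egr1 and Fos, GnRH over vehicle (linear axis from 0), relative to each of the 9 reference genes (red bars) and to their geometric mean and the array's 75th percentile (grey bars). The shortest bars are those relative to Tbp (315 and 56.2) and the longest those relative to Tfrc (362 and 64.6).

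A change of scale moves all genes together, and some members lay close enough to 0 to change side. With no scaling, 2 of the 9 were above 0 and their mean was -0.06, and after scaling to the median 3 were above 0. The arrays also carry control probes named for the adenoviral E1A spike-in set, of which 8 of 10 were well above background, with 35 spots each. After 75th-percentile scaling these 8 had a median difference of 0.14 and ran from -0.07 to 0.23. Scaling to them instead, an alternative added after the data were seen, moved the median of all genes to -0.15. The mean of the 9 reference genes moved to -0.10. B2m and Tbp remained the highest, an order that a shift of a whole array cannot change. How much control RNA was added is not stated in the labels, so a shift of all transcripts and a difference in added control RNA cannot be told apart. Gapdh, Ppia, Ywhaz, Sdha and Tfrc changed sign between settings, Hprt and Gusb were below 0 in all 14, and B2m and Tbp were above 0 in all 14.

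**Figure D4:**
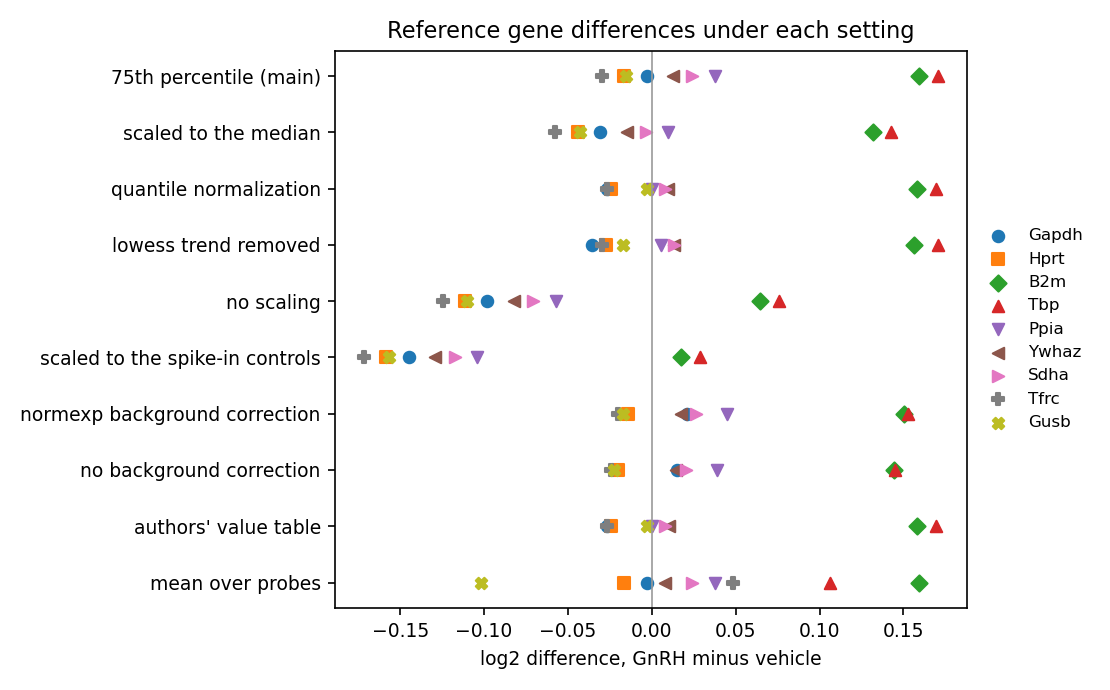
Log2 difference (GnRH minus vehicle) of the 9 reference genes, 1 symbol per gene, under the main 75th-percentile scaling and under other settings. The row without scaling (mean -0.06) and the row scaled to the spike-in controls (mean -0.10) lie left of the others as a block. B2m and Tbp are the rightmost symbols in each row, an order that a shift of a row as a block cannot change.

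Values of 21 other genes in use as references, all well above background, are given singly. Ubb, a polyubiquitin gene, read 224285 and 248807 (0.24 ± 0.20), though a further Ubb probe gave 0.06. Actb, the cytoplasmic beta-actin gene and a known target of serum response factor, read 247069 and 258243 (0.16 ± 0.20). At the other end, the cytochrome gene Cyc1 read 49696 and 42156 (-0.14 ± 0.20).

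The translation genes Eef1a1 (0.11), Rplp0 (0.07), Eef2 (0.03), Rpl19 (0.02), Rpl13a (0.01), Eif4a2 (-0.06) and Rps18 (-0.07) lay within their scanner error of 0. So did the haem synthesis gene Alas1 (0.11), the glycolytic gene Pgk1 (-0.07) and Rer1 (-0.04), Polr2a (0.03), Tubb5 (0.02) and Ipo8 (0.02). Psmb4 (0.00), Top1 (-0.01), Nono (0.01), Atp5b (-0.01) and Canx (-0.02) were close to 0. Further probes of Rplp0, Rps18 and Eif4a2 had the opposite sign, at -0.0047, 0.04 and 0.09.

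**Figure D5:**
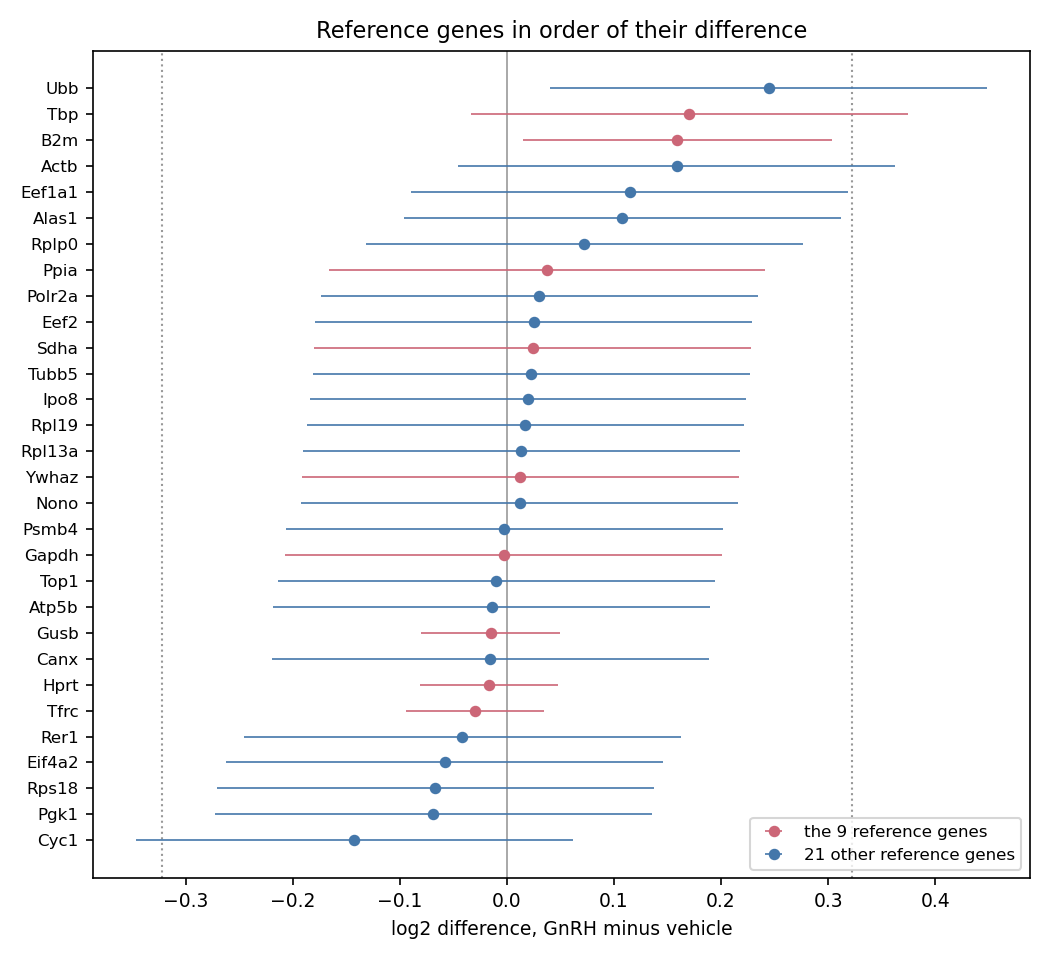
Log2 difference (GnRH minus vehicle) ± scanner error of the 9 reference genes (red) and 21 others (blue), in order of the difference, with dotted lines at a gap of 25%. The outermost of the genes drawn are Ubb at 0.24 and Cyc1 at -0.14; the 9 genes run from Tfrc at -0.03 to Tbp at 0.17.

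The pathways of the 9 genes were described from 9 further lists. These held 114 measured genes beside the members, with a median of 0.00, of which 1 was at least 25% apart (8.36% of all genes were) and 0 passed 2-fold (0.441%). That gene was Hk2, the inducible hexokinase gene, which was dim at 76.0 and 98.2 (0.46 ± 0.22). Hk2 was less than 25% apart with normexp or with no background correction. The share over all genes moves with the background step too, as its 1764 genes became 313 with normexp. No share matched for signal was made, here or at 1.1-fold below, so the counts do not set the lists apart from other genes of their brightness. Of 16 glycolysis genes, beside Gapdh, 15 were less than 25% apart and the median was -0.02; Pfkl, a phosphofructokinase gene, was at -0.13. Of 5 measured succinate dehydrogenase genes beside Sdha 0 passed 1.1-fold, against 27.6% of all genes (median -0.01), with Sdhc at -0.07 (0.03 on its other probe) and Sdhd at -0.05. Of 13 purine enzyme genes beside Hprt 0 passed it as well (median 0.00), with the adenosine kinase gene Adk at -0.14 and Ppat, the first step of purine synthesis, at 0.12. All these counts take the brightest probe of a gene. A further probe of a purine enzyme gene stood at -0.32, against 0.05 on its brightest.

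Of 10 measured partners of B2m in MHC class I presentation, 0 passed 1.1-fold, against 27.6% of all genes, a share not matched for signal. Their median was 0.00, and the peptide transporter gene Tap1 was at -0.13 and the peptidase gene Erap1 at 0.11, though Erap1 was dim at 29.2. Among 18 TFIID subunits and other partners of Tbp, the median was 0.05 and 5 passed 1.1-fold, 27.8% against 27.6% of all genes. Of the 18, 13 were above 0, against 10019 of all 21105 measured genes, a share not matched for signal. A common rise of this list was not tested. Taf7 and Taf4a, both TFIID subunit genes, were highest at 0.24 each, with a further Taf7 probe at 0.44. In the lists of Ppia (16 cyclophilins and FK506-binding proteins, median 0.01) and Ywhaz (6 genes, median -0.03), Fkbp1a was at 0.10 (-0.11 on another of its probes), Ppil2 at -0.10, Ywhag at 0.20 and Ywhae at -0.12. A further probe of a gene in the Ppia list stood at -0.55, against -0.05 on that gene's brightest. The iron handling genes around Tfrc had a median of 0.05 over 13 measured members, with the iron sensor gene Ireb2 at 0.14 and the iron exporter gene Slc40a1 at 0.13. Slc40a1 was dim at 82.9 and 85.2, and the lowest value of this list was -0.13. The 17 lysosomal hydrolase genes around Gusb had a median of -0.03, with Arsb at -0.23 (0.01 on its other probe) and Sgsh at 0.13.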

How the data were processed

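Per the labels, total RNA was amplified, labelled with Cy3 and hybridised, 1 array per group; no source says how many cultures each held. The deposited scanner files give linear intensity per spot; per the file headers, signals were background-subtracted and detrended within each array by Feature Extraction 10.7.1.1 (9.5.1.1 per the submitters' processing notes). Spot marks (well above background, outlier, saturated) are another kind of deposited value, 0 or 1. The authors' deposited value table, also linear intensity, had column medians of 28.43 and 28.44. Its log2 values followed the scanner values of their arrays (r = 1.00 across probes). Its differences followed those of the scanner files (r = 0.998 over 29665 probes). How it was normalized is not stated, but its member differences nearly equal those of quantile normalization (Tbp 0.169 and Gapdh -0.027 in each).

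Control spots and outlier spots (121 and 94) were left out, log2 processed signals were averaged per probe and the 75th percentile was subtracted. A probe was measured if 50% or more of its kept spots were marked well above background, on each array; a gene took its brightest such probe. Gene names are those of the array's files. The members, gene lists and rule for named genes (all members, other reference genes, and the 2 largest differences of each further list) were chosen with earlier results of these data known. Of the list of other reference genes, 3 are not reported here; since they are left out, no share or median over that list is given, and the 21 shown do not stand for it. Steps were tested on simulated data. Areas of neighbouring spots that differ together (a median of 0.3 or more within 2 rows and columns, at least 4 spots) numbered 3. Alternatives changed scaling, background correction (limma 3.58.1 normexp, offset 50), source of values, filters, outliers, areas and probe rule. Python 3.11.15 and statsmodels 0.14.6 (lowess fraction 0.3) were used.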

Additional observations from a re-analysis of the deposited data

How the results depend on the processing

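Across 13 alternatives, B2m and Tbp stayed the highest pair of the 9 genes in all 14 settings. In any setting 0 of the 9 were 25% apart. Median scaling, no scaling and spike-in scaling move all members by a constant, so they could not change the order. Keeping outlier spots also only shifted these values, and the filters on dim probes left them unchanged. B2m fell within its scanner error with median scaling (0.13), no scaling (0.06) and spike-in scaling (0.02). With no scaling, Hprt moved to -0.11, Tfrc to -0.12 and Gusb to -0.11, and with spike-in scaling, added after the data were seen, to -0.16, -0.17 and -0.16, as these settings shift all genes together. The mean over probes put Tfrc at 0.048 and Gusb at -0.10, since it counts their dim probes. The other 91 of 99 member values moved by less than the scanner error. For the members whose probe was printed once or 2 times, that error (0.14 to 0.20) was larger than the shifts of no scaling and spike-in scaling. Those shifts could therefore not count as a move for them. The count of 2 members at least 1.1-fold apart became 1 with median scaling, 0 with no scaling, 4 with spike-in scaling and 1 with the mean over probes. The 93 genes at least 2-fold apart became 58 with normexp, 58 with no background correction, 59 without the areas and 2008 with no filter on dim probes; the cause of the background moves was not tested. Egr1 relative to Gapdh fell to 7.50 (log2) with normexp and 7.42 with no background correction, and Fos to 5.28 and 5.24. Low signal over background limits the dim probes of Tfrc, Gusb and Tbp. No paired analysis was possible because each group has 1 array.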
